A study of Mus musculus with 6 samples.

Results

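Expression of 10 genes that set the phosphorylation of smooth muscle myosin was examined in hypoxic mouse lungs with and without endothelial Nfat5. The genes were chosen by name for their place in the pathway: the GTPases Rhoa and Rhob, the ROCK kinases Rock1 and Rock2, the light chain kinase Mylk and its substrate Myl9, the myosin phosphatase targeting subunits Ppp1r12a and Ppp1r12b, the phosphatase inhibitor Ppp1r14a, and the phospholipase Plcb1. The choice was made with earlier results of these data known. All 10 were measured, among 25428 features in all with 1 feature per gene. The arrays came from 3 Nfat5(EC)-/- mice, in which Nfat5 is deleted from endothelial cells, and from 3 Nfat5fl/fl mice with floxed alleles. In each group the mice are numbered 1, 3 and 4, and 1 lung lobe per mouse was profiled on 1 array. Every mouse had been kept at 10% oxygen for 7 days, so that the comparison is between genotypes within hypoxia and no array describes normal oxygen. The sources used here name neither the Cre driver nor the age or sex of the mice.

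Smooth muscle contracts when the regulatory light chain of myosin (encoded by Myl9) is phosphorylated by myosin light chain kinase (Mylk), which calcium and calmodulin switch on. Receptors coupled to Gq raise calcium through phospholipase C beta enzymes such as Plcb1. Myosin phosphatase, a catalytic subunit held to myosin by a targeting subunit (Ppp1r12a, Ppp1r12b), removes the phosphate. RhoA in its GTP-bound form activates the ROCK kinases, which phosphorylate the targeting subunit and thereby restrain the phosphatase, and CPI-17 (Ppp1r14a) blocks the catalytic subunit directly. In the lung this balance sets the tone of pulmonary arteries during hypoxia, and in endothelial cells the same enzymes act on cell junctions and the cytoskeleton. The arrays measured RNA and not phosphorylation.

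Values are on the log2 scale after robust multi-array averaging (RMA), so that 1 unit is a doubling, and they ran between 0.725 and 13.01, each array having its median at 2.98. The target gene was lower on every Nfat5(EC)-/- array, at 4.46, 4.48 and 3.89, against 6.65, 6.58 and 6.30 on the Nfat5fl/fl arrays (log2 fold change -2.23, SE 0.23, adjusted p = 0.00151). Correlations between arrays were 0.916 to 0.939 within Nfat5(EC)-/-, 0.968 to 0.970 within Nfat5fl/fl and 0.829 to 0.919 between the groups. Nfat5fl/fl mouse 1 stood apart in Xist, the RNA of the inactive X chromosome, with 8.22 against 2.03 to 2.37 on the other 5 arrays. It was also lowest in the Y-linked genes Ddx3y (2.19 against 3.91 to 5.30), Eif2s3y (1.63 against 2.66 to 4.80) and Kdm5d (1.57 against 1.96 to 4.02). In Y-linked Uty it read 2.22, above the 2.05 of Nfat5(EC)-/- mouse 1. Kdm5d was also low on the Nfat5(EC)-/- arrays (1.96 to 2.16), and only Nfat5fl/fl mice 3 and 4 were well above (4.02 and 3.94). High Xist with low Y-linked RNA is the pattern of a female, and the effect of sex was not tested. Calls of named genes that are lost without Nfat5fl/fl mouse 1 are given with the adjusted p in its absence, or for Col1a2 with an upper limit. The median of 107 small nucleolar RNAs was 7.40, 6.43 and 6.40 on the Nfat5(EC)-/- arrays, against 4.00, 4.20 and 4.13 on the Nfat5fl/fl arrays, and the part of this difference between the RNA samples in the values of the 10 genes was not tested.

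Promoter sequences of some of the genes that changed were set side by side. Upstream sequence was taken from RefSeq on GRCm38.p6, with promoters set as 250 bases before to 50 bases after the annotated start. The promoter of Rock1 was left out and not searched, and the other 9 of the 10 genes gave 11 windows. The 100 bases before the start are shown for 3 genes that were lower in Nfat5(EC)-/- lungs (Rock2, chr12:16894878-16894977, plus strand; Ppp1r12a, chr10:108161998-108162097, plus strand; Plcb1, chr2:134786064-134786163, plus strand) and for the 2 that were higher (Ppp1r14a, chr7:29289220-29289319, plus strand; Rhob, chr12:8500010-8500109, minus strand), because these stretches can be set side by side at the same distance from the start. Each is written 5′ to 3′ with every CG dinucleotide in capitals.
Rock2: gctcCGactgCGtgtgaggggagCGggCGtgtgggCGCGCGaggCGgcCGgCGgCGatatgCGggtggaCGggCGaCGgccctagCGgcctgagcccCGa
Ppp1r12a: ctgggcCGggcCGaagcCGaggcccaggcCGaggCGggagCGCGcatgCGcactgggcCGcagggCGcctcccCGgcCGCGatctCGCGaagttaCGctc
Plcb1: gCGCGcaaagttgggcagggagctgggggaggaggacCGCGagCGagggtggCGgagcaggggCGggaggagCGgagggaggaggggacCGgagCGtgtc
Ppp1r14a: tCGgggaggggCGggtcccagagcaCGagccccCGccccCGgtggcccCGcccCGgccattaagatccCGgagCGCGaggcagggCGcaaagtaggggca
Rhob: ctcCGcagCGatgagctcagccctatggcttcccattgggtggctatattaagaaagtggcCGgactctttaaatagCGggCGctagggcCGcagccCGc

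The 3 stretches of the lower genes held 17, 16 and 10 CG dinucleotides (Rock2, Ppp1r12a, Plcb1), and the 2 of the higher genes held 11 and 7 (Ppp1r14a, Rhob). The counts of the directions thus overlapped in the stretches shown. Ppp1r12b, also lower, is not among them, and its whole windows held 8 and 16 CG. The 11 whole windows of the 9 genes had a median of 25 CG, against 7 over all 32851 promoters searched. The tonicity element, the binding sequence of NFAT5, was looked for on both strands in 1 form only. That form was TGGAAA followed by any 3 bases, C or T, G, and C or T. It was in 1.03% of all promoters and in none of the 11 windows, which says only that these letters are not there. Its core TGGAAA, found in 21.4% of all promoters, occurred once, on the minus strand 28 bases after the start of Mylk. The CArG box, the binding sequence of serum response factor at many contractile genes, was in 1.63% of all promoters. Among the 9 genes searched it was in Myl9 alone. Shown here are 100 bases of the Myl9 upstream sequence (chr2:156775284-156775383, plus strand) with the CArG box in capitals.
Myl9: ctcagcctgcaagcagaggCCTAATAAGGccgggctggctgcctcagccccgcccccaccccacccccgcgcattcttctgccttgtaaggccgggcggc

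Of the 10 genes, 7 passed an adjusted p of 0.05 by limma, with p-values adjusted over all features by the Benjamini-Hochberg method. Both ROCK kinases, both phosphatase targeting subunits and Plcb1 were lower in Nfat5(EC)-/- lungs, the inhibitor Ppp1r14a and Rhob were higher, and Rhoa, Mylk and Myl9 did not pass. Calls were common on these arrays: 25.6% of all features passed, 12.5% higher and 13.1% lower, and among features whose mean level was above the median feature 43.3% passed, 21.7% higher and 21.6% lower. Where the 3 values of one genotype all lay on one side of the other, as for 42.0% of all features (22.0% higher and 20% lower), the genotypes are said not to overlap, and this held for the same 7 genes. Without the moderation of variances across features that limma applies, 3 of the 7 still passed (Rock2, Ppp1r14a and Plcb1), in a fit that called 7.8% of all features. Without Nfat5fl/fl mouse 1 or Nfat5fl/fl mouse 3, 5 of the 7 passed, in fits that called 12.9% and 11.9% of all features. The median log2 fold change was -0.66 over the 10 genes, against 0.04 over all features. The spread between mice was larger in Nfat5(EC)-/- than in Nfat5fl/fl lungs for 8 of the 10 genes. In whole lung, fewer cells of a type and less RNA per cell cannot be told apart.

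**Figure D1:**
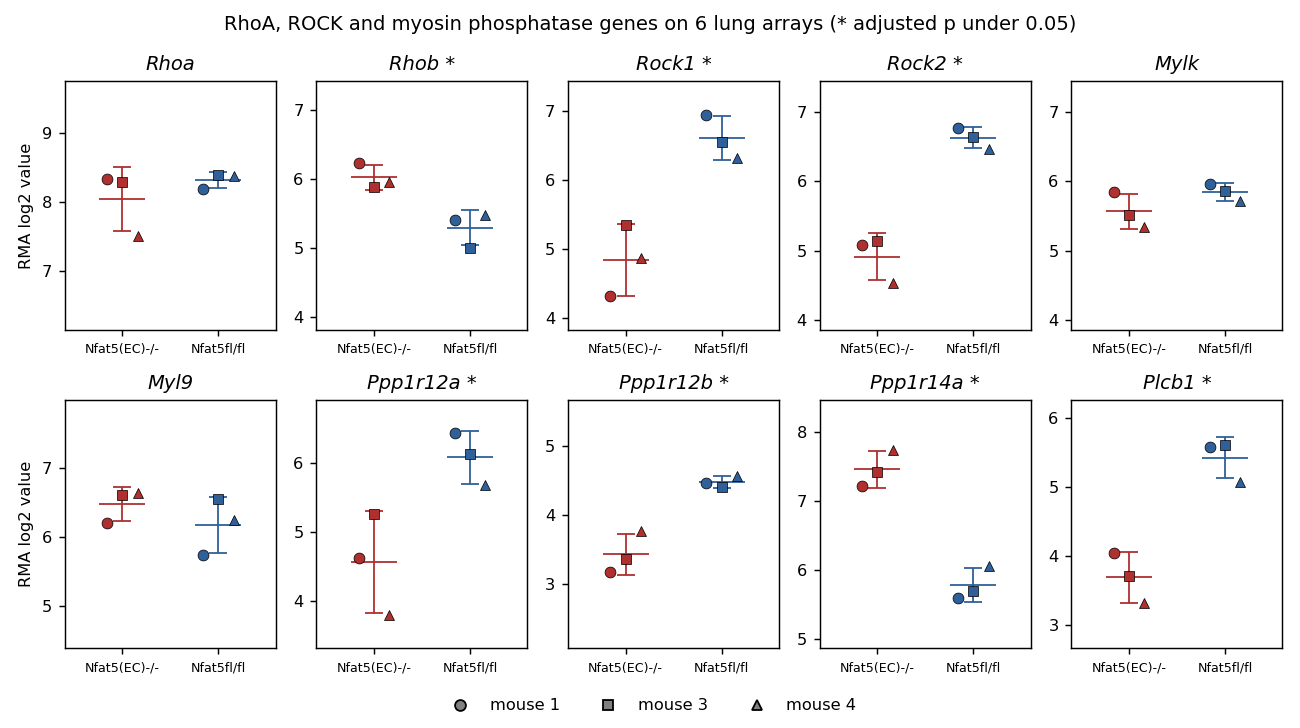
RMA log2 value of each of the 10 genes (vertical axes, all of the same length in log2 units) in Nfat5(EC)-/- lungs (left, red) and Nfat5fl/fl lungs (right, blue), with 1 point per mouse and bars for the mean and SD of 3 mice. The 7 genes with an asterisk passed the test, and in each of them the points of the genotypes do not overlap.

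Rhoa, the GTPase that activates both ROCK kinases, did not pass the test. It read 8.33, 8.29 and 7.50 on the Nfat5(EC)-/- arrays of mice 1, 3 and 4, against 8.18, 8.39 and 8.37 on the Nfat5fl/fl arrays. Mouse 4 was the low value of Nfat5(EC)-/-, and the other two Nfat5(EC)-/- values lay within the range of Nfat5fl/fl. The log2 fold change was -0.28 (SE 0.25, 95% confidence interval -0.85 to 0.29, adjusted p = 0.476) and -0.0083 without Nfat5(EC)-/- mouse 4.

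Rhob, a relative of RhoA found largely on endosomes and known as an early-response gene, was 1.65-fold higher in Nfat5(EC)-/- lungs. It read 6.23, 5.88 and 5.96 on the Nfat5(EC)-/- arrays, against 5.41, 5.01 and 5.48 on the Nfat5fl/fl arrays, and the closest values of the genotypes were 0.40 apart. The log2 fold change was 0.73 (SE 0.21, 95% confidence interval 0.25 to 1.20, adjusted p = 0.0341). This was the weakest of the 7 calls. It was lost without any 1 array other than Nfat5(EC)-/- mouse 3, with adjusted p-values of 0.0723 and 0.0516 without Nfat5(EC)-/- mice 1 and 4, and 0.0822, 0.143 and 0.0567 without Nfat5fl/fl mice 1, 3 and 4.

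Both ROCK kinases were lower by similar amounts. Rock1 read 4.31, 5.34 and 4.87 on the Nfat5(EC)-/- arrays, against 6.94, 6.55 and 6.31 on the Nfat5fl/fl arrays. Its means were 4.84 ± 0.51 in Nfat5(EC)-/- and 6.60 ± 0.32 in Nfat5fl/fl lungs (SD, n = 3 each), a 3.39-fold lower level (log2 fold change -1.76, SE 0.29, 95% confidence interval -2.42 to -1.10, adjusted p = 0.00406). The lowest Nfat5(EC)-/- value belonged to mouse 1, and 0.97 log2 units separated the genotypes. Rock2 read 5.08, 5.14 and 4.53 on the Nfat5(EC)-/- arrays, against 6.78, 6.64 and 6.47 on the Nfat5fl/fl arrays, and here the lowest Nfat5(EC)-/- value belonged to mouse 4. Its means were 4.91 ± 0.34 and 6.63 ± 0.15 in Nfat5(EC)-/- and Nfat5fl/fl lungs (SD, n = 3 each), 3.29-fold apart (log2 fold change -1.72, SE 0.22, 95% confidence interval -2.22 to -1.21, adjusted p = 0.00227). With 1.34 log2 units between the closest values, Rock2 had the widest gap of the 10 genes. Both calls held when each array was left out in turn, with adjusted p-values of at most 0.0256 for Rock1 and 0.0191 for Rock2. Whether probes of these similar genes share transcripts was not examined here.

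Mylk and Myl9, the kinase and the substrate that make up the final step of contraction, did not pass. Mylk read 5.84, 5.51 and 5.34 on the Nfat5(EC)-/- arrays, against 5.96, 5.87 and 5.72 on the Nfat5fl/fl arrays (log2 fold change -0.28, SE 0.20, 95% confidence interval -0.75 to 0.18, adjusted p = 0.360). Nfat5(EC)-/- mouse 1 lay within the Nfat5fl/fl values. Myl9 read 6.20, 6.61 and 6.64 on the Nfat5(EC)-/- arrays, against 5.74, 6.55 and 6.24 on the Nfat5fl/fl arrays (log2 fold change 0.31, SE 0.25, 95% confidence interval -0.26 to 0.88, adjusted p = 0.424). The genotypes overlapped, and the lowest value was that of Nfat5fl/fl mouse 1, without which the log2 fold change was 0.09. The intervals leave room for changes of either sign in both genes.

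The subunits that carry the phosphatase to myosin were lower. Ppp1r12a, which encodes MYPT1, the targeting subunit of smooth muscle and most other cells, read 4.62, 5.26 and 3.79 on the Nfat5(EC)-/- arrays, against 6.43, 6.12 and 5.67 on the Nfat5fl/fl arrays. Its Nfat5(EC)-/- mice were the most variable of any of the 10 genes (4.56 ± 0.74 in Nfat5(EC)-/- and 6.07 ± 0.38 in Nfat5fl/fl lungs, SD, n = 3 each), and mouse 4 was the lowest. The level was 2.86-fold lower (log2 fold change -1.52, SE 0.36, 95% confidence interval -2.33 to -0.70, adjusted p = 0.0160), a call that was lost without Nfat5fl/fl mouse 1 (-1.34, adjusted p = 0.0741) and without Nfat5fl/fl mouse 3 (-1.49, adjusted p = 0.0643). Ppp1r12b, which encodes the related MYPT2 of heart and other striated muscle, read 3.17, 3.36 and 3.76 on the Nfat5(EC)-/- arrays, against 4.45, 4.40 and 4.57 on the Nfat5fl/fl arrays. Mouse 4 was here the highest of the Nfat5(EC)-/- mice, and the genotypes were 0.64 apart. The log2 fold change was -1.05 (SE 0.21, 95% confidence interval -1.52 to -0.57, adjusted p = 0.00832), and the adjusted p stayed at or below 0.0382 without each array.

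Ppp1r14a, which encodes CPI-17, a smooth muscle inhibitor of myosin phosphatase that protein kinase C activates, was 3.19-fold higher. It read 7.21, 7.41 and 7.74 on the Nfat5(EC)-/- arrays, against 5.59, 5.69 and 6.06 on the Nfat5fl/fl arrays. The lowest Nfat5(EC)-/- value was 1.15 above the highest Nfat5fl/fl value, and mouse 4 was the highest in both genotypes. Means were 7.45 ± 0.27 in Nfat5(EC)-/- and 5.78 ± 0.25 in Nfat5fl/fl lungs (SD, n = 3 each; log2 fold change 1.68, SE 0.22, 95% confidence interval 1.17 to 2.18, adjusted p = 0.00235). The call held without each array, with adjusted p-values of at most 0.0194.

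Plcb1, the phospholipase C beta that Gq switches on to release the calcium-mobilizing messenger inositol trisphosphate, was 3.32-fold lower. It read 4.05, 3.71 and 3.32 on the Nfat5(EC)-/- arrays, against 5.57, 5.61 and 5.08 on the Nfat5fl/fl arrays, with 1.03 between the closest values. Mouse 4 was the lowest in each genotype. The log2 fold change was -1.73 (SE 0.25, 95% confidence interval -2.30 to -1.16, adjusted p = 0.00284), and the adjusted p was at most 0.0218 without each array.

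**Figure D2:**
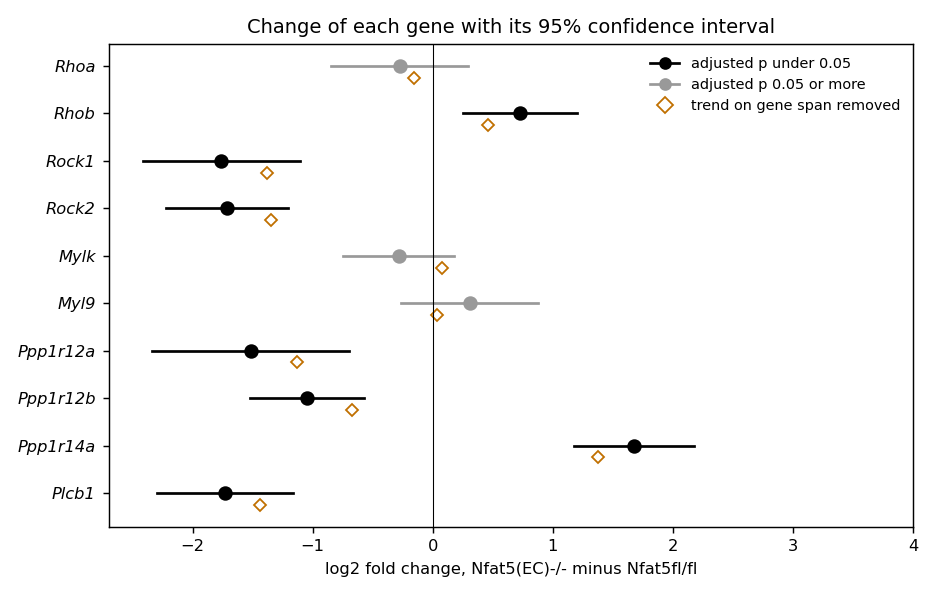
Log2 fold change (Nfat5(EC)-/- minus Nfat5fl/fl, horizontal axis) of each of the 10 genes with its 95% confidence interval, in black where the adjusted p was under 0.05 and in grey otherwise, and, as open diamonds, the value after the trend of change on gene span was removed. The black intervals lie below 0 for 5 genes and above 0 for Rhob and Ppp1r14a, and the diamonds of all 10 genes lie closer to 0, that of Mylk (0.077) on the other side of it.

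Partner genes were also compared on the same array, as the difference of their log2 values, and these differences are read only between genotypes. Ppp1r14a minus Ppp1r12a, the inhibitor against the subunit it acts beside, was 2.59, 2.15 and 3.95 on the Nfat5(EC)-/- arrays, against -0.84, -0.43 and 0.38 on the Nfat5fl/fl arrays. The mean difference between genotypes was 3.19, and the genotypes did not overlap. Mylk minus Ppp1r12a, the kinase against the phosphatase subunit, was 1.22, 0.25 and 1.55 on the Nfat5(EC)-/- arrays, against -0.47, -0.25 and 0.04 on the Nfat5fl/fl arrays, a difference of 1.23. Rhob minus Rhoa was -2.10, -2.40 and -1.54 on the Nfat5(EC)-/- arrays, against -2.78, -3.38 and -2.89 on the Nfat5fl/fl arrays, a difference of 1.00. For each of these 3 pairs an exact 2-sided permutation test gave p = 0.1, the smallest value that 3 against 3 arrays allow (adjusted p = 0.167 over 5 pairs), so the design could not reach 0.05.

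The other pairs consist of close relatives that moved in the same direction. Rock2 minus Rock1 was 0.77, -0.20 and -0.34 on the Nfat5(EC)-/- arrays, against -0.16, 0.09 and 0.17 on the Nfat5fl/fl arrays, with a difference of 0.04 (exact permutation p = 1). Nfat5(EC)-/- mouse 1, the mouse with the lowest Rock1, lay above the Nfat5fl/fl range and the other two lay below it. The difference was -0.30 without Nfat5(EC)-/- mouse 1. Ppp1r12b minus Ppp1r12a was -1.45, -1.90 and -0.03 on the Nfat5(EC)-/- arrays, against -1.97, -1.72 and -1.11 on the Nfat5fl/fl arrays, a difference of 0.47 (exact permutation p = 0.6) that was -0.079 without Nfat5(EC)-/- mouse 4.

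**Figure D3:**
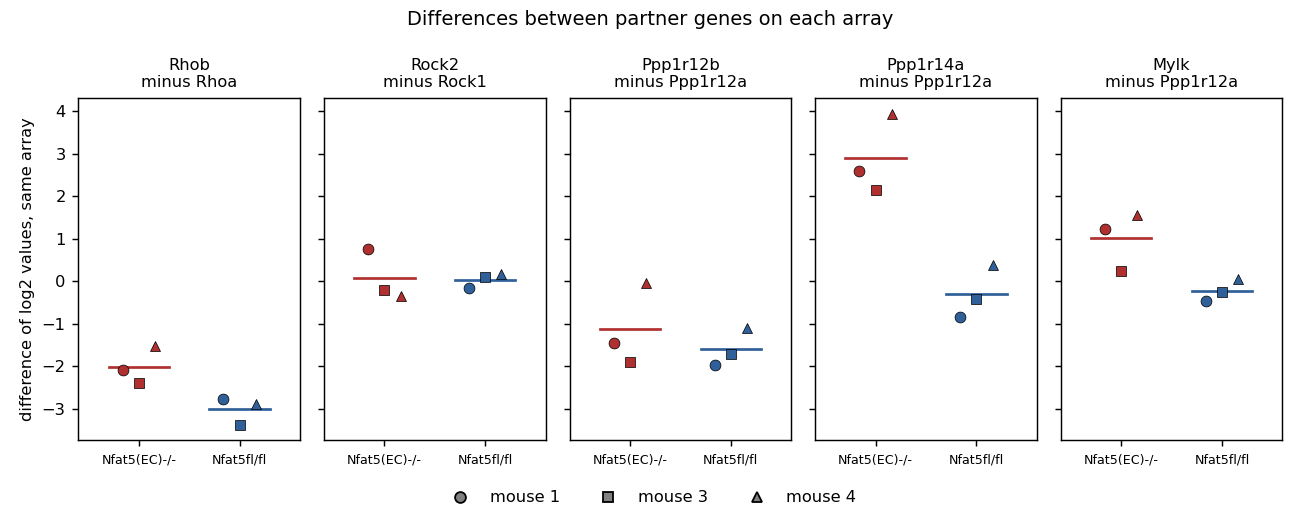
Difference of the log2 values of a pair of genes on the same array (vertical axis) in Nfat5(EC)-/- (left, red) and Nfat5fl/fl lungs (right, blue), with 1 point per mouse and a line at the mean of 3 mice. The genotypes do not overlap for Rhob minus Rhoa, Ppp1r14a minus Ppp1r12a and Mylk minus Ppp1r12a, and they overlap for the pairs Rock2 minus Rock1 and Ppp1r12b minus Ppp1r12a.

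The wider pathway was described by 132 further genes in 9 lists, which were also chosen with earlier results of these data known. Nfat5(EC)-/- lungs had higher levels of 25 of them and lower levels of 34, 44.7% together, with a median log2 fold change of -0.15. That share is close to the 43.3% found among all features above the median level. Of the 59 calls, 34 held when each array was left out in turn.

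Among 15 other GTPases of the RhoA family, 3 were higher and 1 lower (median 0.18). Cdc42, which drives filopodia and cell polarity, read 7.96, 8.17 and 7.97 on the Nfat5(EC)-/- arrays, against 9.74, 9.44 and 9.32 on the Nfat5fl/fl arrays (log2 fold change -1.47, adjusted p = 0.00239). Rac2, the Rac of blood cells, was higher (0.99, adjusted p = 0.00885). Rhog (0.99, adjusted p = 0.0144) lost its call without Nfat5fl/fl mouse 1 (adjusted p = 0.0672) and without Nfat5fl/fl mouse 3 (0.0593), and Rnd1 (0.69, adjusted p = 0.0490) without any 1 array other than Nfat5(EC)-/- mouse 4 (0.161 without Nfat5fl/fl mouse 1, the highest).

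Regulators of the GTPase cycle moved unevenly. Exchange factors load RhoA with GTP, and of 20 measured, 4 were higher and 4 lower (median -0.06). Ect2, which activates RhoA in dividing cells, read 3.72, 4.46 and 3.77 on the Nfat5(EC)-/- arrays, against 6.17, 6.38 and 6.24 on the Nfat5fl/fl arrays (log2 fold change -2.28, adjusted p = 0.00159). Akap13 (-1.44, adjusted p = 0.00409) and Arhgef12 (-1.39, adjusted p = 0.00465), which couples G12/13 receptors to RhoA, were also lower. Arhgef17 was higher (1.02, adjusted p = 0.0120), a call lost without Nfat5fl/fl mouse 1 (adjusted p = 0.0581) and without Nfat5fl/fl mouse 3 (0.0504).

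GTPase activating proteins end the active state of RhoA. Of 19 measured, 8 were lower and 0 higher by limma, with 0 higher also at an unadjusted p under 0.05, and 18 had a negative log2 fold change (median -0.63). Arhgap42, a RhoA-directed member that restrains contraction of vascular smooth muscle, read 4.90, 4.45 and 4.15 on the Nfat5(EC)-/- arrays, against 6.07, 5.98 and 5.80 on the Nfat5fl/fl arrays (log2 fold change -1.45, adjusted p = 0.00367). Arhgap29, which endothelial cells use to keep RhoA low at junctions, was lower (log2 fold change -1.42, adjusted p = 0.00312), as were Arhgap20 (-1.98, adjusted p = 0.00163) and Myo9a, a myosin with a domain that inactivates RhoA (-1.69, adjusted p = 0.00223). These are long genes, with a median genomic span of 146241 bp for the list.

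Dissociation inhibitors hold RhoA and its relatives in the cytosol, and 2 of 3 were higher. Arhgdig read 5.54, 5.18 and 5.42 on the Nfat5(EC)-/- arrays, against 3.05, 3.09 and 3.39 on the Nfat5fl/fl arrays (log2 fold change 2.20, adjusted p = 0.00119). Arhgdia, the widely expressed form, read 7.62, 7.46 and 7.71 on the Nfat5(EC)-/- arrays, against 5.79, 6.14 and 6.66 on the Nfat5fl/fl arrays (log2 fold change 1.40, adjusted p = 0.00508). The genotypes did not overlap for either gene, and the median span of this list was 3526 bp.

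Among 9 other subunits of myosin phosphatase and its relatives, 3 were higher and 2 lower (median 0.17). Ppp1cb, the catalytic subunit found in myosin phosphatase, read 6.11, 6.44 and 6.26 on the Nfat5(EC)-/- arrays, against 7.61, 7.47 and 7.21 on the Nfat5fl/fl arrays (log2 fold change -1.16, adjusted p = 0.00468). It was thus lower together with Ppp1r12a, the subunit it binds. The catalytic relative Ppp1ca was higher (1.01, adjusted p = 0.00929), as were the targeting subunit relatives Ppp1r16a (1.11, adjusted p = 0.00702) and Ppp1r12c (0.96, adjusted p = 0.0118, and 0.0553 without Nfat5fl/fl mouse 1).

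Of 19 kinases that act on the phosphatase or on the light chain, 2 were higher and 5 lower (median -0.09). Dapk3, which phosphorylates both MYPT1 and the light chain, read 4.98, 5.31 and 5.74 on the Nfat5(EC)-/- arrays, against 3.83, 4.01 and 3.90 on the Nfat5fl/fl arrays (log2 fold change 1.43, adjusted p = 0.00375). Pkn2, a kinase activated by RhoA, was lower (-1.50, adjusted p = 0.00308). Cdc42bpa, a Cdc42-activated relative of the ROCK kinases, was lower (-1.76, adjusted p = 0.00568).

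Among 11 myosin chains and calmodulins, 2 were higher and 2 lower (median -0.23). Myh14, a nonmuscle myosin heavy chain, read 7.39, 7.06 and 7.55 on the Nfat5(EC)-/- arrays, against 5.46, 5.42 and 5.76 on the Nfat5fl/fl arrays (log2 fold change 1.79, adjusted p = 0.00190), and the calmodulin gene Calm3 was higher by 1.15 (adjusted p = 0.00522). Myl6, the essential light chain, was lower (-0.94, adjusted p = 0.0209), but all its values lay below the array median of 2.98, and the call was lost without Nfat5(EC)-/- mouse 3 (adjusted p = 0.0559), Nfat5fl/fl mouse 1 (0.0647) or Nfat5fl/fl mouse 3 (0.0929). Myh10 (-1.06, adjusted p = 0.0453) lost its call without any 1 array other than Nfat5(EC)-/- mouse 3 (adjusted p = 0.138 without Nfat5fl/fl mouse 1 and 0.141, the highest, without Nfat5fl/fl mouse 3).

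In the 15 genes around Plcb1, 3 were higher and 5 lower (median -0.42). Plcb4, another phospholipase C beta, was lower with Plcb1 and read 4.29, 4.09 and 3.60 on the Nfat5(EC)-/- arrays, against 5.90, 5.68 and 5.52 on the Nfat5fl/fl arrays (log2 fold change -1.71, adjusted p = 0.00243). The alpha subunits of the Gq class differed in direction. Gna11 was higher (1.22, adjusted p = 0.00447), and Gnaq, named after its value was seen, was lower (-0.85, adjusted p = 0.0119), a call lost without Nfat5fl/fl mouse 1 (adjusted p = 0.0559) and with the span trend removed (0.0792). Gna13, the alpha subunit of G13 (-1.05, adjusted p = 0.00713), and Rgs4, which shortens Gq signals (-1.18, adjusted p = 0.00409), were lower.

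Downstream of RhoA and the ROCK kinases, 6 of 21 effectors on actin were higher and 7 lower (median -0.02). Limk1, the kinase that ROCK activates to inhibit cofilin, read 6.02, 5.81 and 6.17 on the Nfat5(EC)-/- arrays, against 4.86, 4.40 and 4.46 on the Nfat5fl/fl arrays (log2 fold change 1.43, adjusted p = 0.00293). Ssh2, a phosphatase that reactivates cofilin, was lower (-1.65, adjusted p = 0.00174). The formins Diaph2 (-1.73, adjusted p = 0.00227) and Diaph3 (-1.52, adjusted p = 0.00436), which elongate actin filaments, were lower as well.

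**Figure D4:**
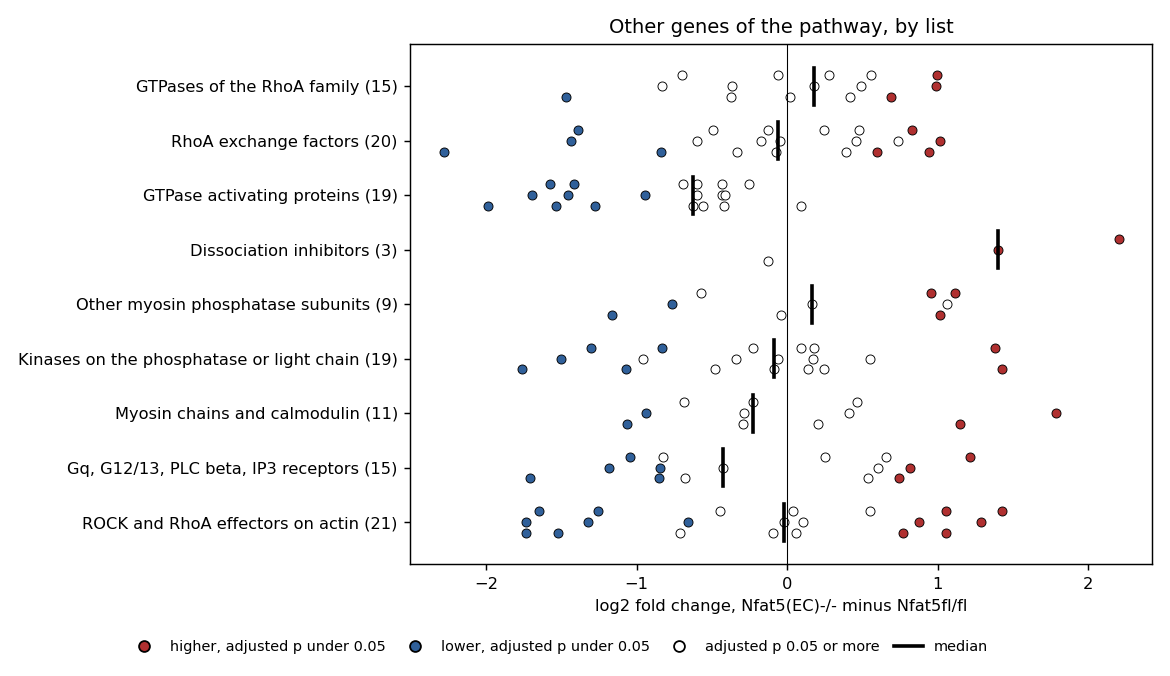
Log2 fold change (Nfat5(EC)-/- minus Nfat5fl/fl, horizontal axis) of 132 further pathway genes, 1 point per gene, in 9 lists with the number measured in brackets and a line at each median. Red points are higher and blue points lower at an adjusted p under 0.05, and open points did not pass: the GTPase activating proteins have 8 blue and 0 red points, whereas the exchange factors have 4 of each.

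The direction of change went with the genomic span of a gene, from its start to its end including introns. Of the 6 member genes with spans over 90000 bp (Rock1, Rock2, Mylk, Ppp1r12a, Ppp1r12b, Plcb1), 5 were lower, and of the 4 shorter ones 0 were lower by limma, also at an unadjusted p under 0.05. Protein-coding genes were divided into 10 equal bins of span. In the bin with the longest spans, which holds 5 of the members, 30.7% of genes were lower and 4.15% higher, and in the bin below it, which holds Rock2, 32.3% were lower and 6.48% higher. In the bin that holds Rhob (2349 bp) and Ppp1r14a (4071 bp), 3.11% were lower and 20.4% higher. After the trend on span had been removed from each array, 26.2% of the 20236 protein-coding features passed, and 5 members did: Rock1 (-1.38, adjusted p = 0.00839), Rock2 (-1.35, adjusted p = 0.00396), Ppp1r12a (-1.13, adjusted p = 0.0341), Plcb1 (-1.44, adjusted p = 0.00436) and Ppp1r14a (1.38, adjusted p = 0.00382). Ppp1r12b (-0.67, adjusted p = 0.0542) and Rhob (0.46, adjusted p = 0.130) no longer did. Of the 59 calls in the wider pathway 47 passed in that fit, and 26 of the 34 lower genes but 5 of the 25 higher ones lay in the 3 bins with the longest spans.

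**Figure D5:**
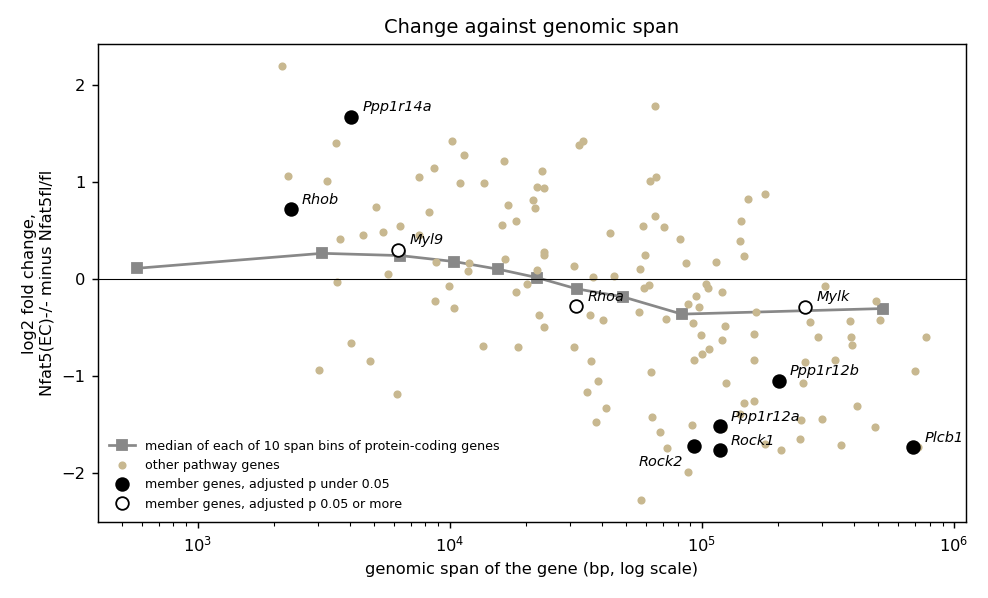
Log2 fold change (Nfat5(EC)-/- minus Nfat5fl/fl, vertical axis) against genomic span in bp (horizontal axis, log scale) for the 10 member genes (black, filled where the adjusted p was under 0.05), for 132 further pathway genes (tan) and, as grey squares joined by a line, for the median of each of 10 span bins of protein-coding genes, placed at the middle of the bin on the log scale. The medians are 0.27 in the bin that holds Rhob and Ppp1r14a and -0.30 in the bin with the longest spans, and the 7 members that passed lie farther from 0 than the median of their bin.

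Markers of the cells that could carry these RNAs did not all move with them. Of 8 smooth muscle markers 1 was higher, Smtn (log2 fold change 1.03, adjusted p = 0.00979, and 0.0510 without Nfat5fl/fl mouse 3), and 0 were lower by limma, also at an unadjusted p under 0.05. Values were 0.18 for Acta2, -0.22 for Tagln and -0.29 for Myh11, which did not pass. Neither did Des (0.97), Actg2 (0.51), Cnn1 (0.33) and Lmod1 (0.22), and the median of the list was 0.275. At an unadjusted p under 0.05 by limma, 2 of the 8 were higher, Smtn and Des. The mean level of that list was 5.50 to 5.90 on the Nfat5(EC)-/- arrays and 5.06 to 5.62 on the Nfat5fl/fl arrays, so that the ranges overlap. Of 8 endothelial markers 4 were lower (Tek, Pecam1, Cdh5, Emcn) and 2 higher (Cldn5, Eng), with list means of 7.15 to 7.51 on the Nfat5(EC)-/- arrays against 7.85 to 7.98 on the Nfat5fl/fl arrays. The calls of Tek, Pecam1 and Cdh5 held without each array. Those of Emcn (adjusted p = 0.0988), Cldn5 (0.0646) and Eng (0.0654) were lost without Nfat5fl/fl mouse 1. They were also lost without Nfat5fl/fl mouse 3 (0.0861, 0.0591 and 0.0571), and each of these 2 fits left 3 lower and 0 higher. With the span trend removed, however, Cldn5 (0.72, adjusted p = 0.0323) and Eng (1.19, adjusted p = 0.00869) passed. Tek, Pecam1 and Cdh5 passed in that fit too, and Emcn (-1.26, adjusted p = 0.0654) did not. At an unadjusted p under 0.05 by limma, 5 endothelial markers were lower and 3 higher, so the list was of mixed direction. Pericyte markers gave 2 of 5 higher (4.84 to 5.61 in Nfat5(EC)-/-, 4.45 to 4.64 in Nfat5fl/fl), Cspg4 (1.69) and Cox4i2 (1.09). Pdgfrb (0.56), Kcnj8 (0.04) and Higd1b (-0.41) did not pass. For Higd1b the genotypes did not overlap, and with the span trend removed it passed as lower (-0.65, adjusted p = 0.0494). Cardiac muscle markers, which in mouse lung mark the wall of pulmonary veins, gave 3 of 6 higher (5.22 to 6.06 in Nfat5(EC)-/-, 4.78 to 5.09 in Nfat5fl/fl). Of these 3, Myl4 (1.09) kept its call without each array, Myh6 (0.85) lost it without any 1 Nfat5fl/fl array (adjusted p of at most 0.0853) and Actc1 (0.91) without 4 of the 6 arrays (at most 0.158), both maxima being those without Nfat5fl/fl mouse 1. Tnnt2 (-0.49), Myl7 (0.50) and Nppa (1.62) did not pass. Fibroblast markers gave 2 higher and 1 lower of 5, epithelial markers 1 higher of 6 and leukocyte markers 1 lower of 5. The call of Col1a2 (higher) was lost without Nfat5fl/fl mouse 1 and without Nfat5fl/fl mouse 3. Its adjusted p was at most 0.0690, the value without Nfat5fl/fl mouse 3. These lists were also of mixed direction at an unadjusted p under 0.05 by limma. Fibroblast markers were 3 higher and 2 lower, epithelial markers 2 higher and 1 lower, and leukocyte markers 1 higher and 1 lower. The part of cell composition in the changes of the 10 genes was not tested.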

How the data were processed

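RNA of 1 lung lobe per mouse was labelled as biotinylated cRNA by the authors with the standard Affymetrix protocol. The deposited values are log2 values that the authors made with RMA, which corrects background, gives all arrays the same distribution by quantile normalization and summarises probes per gene. Not given in the sources used here were the RMA version, array type, probe definition and genome build. After sorting, the arrays differ by no more than 0.0019, so a change in total RNA would not be visible. Precision is limited by the number of arrays.

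Of 25428 features, 24705 were named through the platform table and 564, Rock2 among them, only through their RefSeq gene number (GRCm38.p6), and 159 stayed unnamed. The genotypes were compared with limma 3.58.1 in R 4.3.3 (lmFit and eBayes on all 6 arrays, 2-sided, Benjamini-Hochberg over all features, threshold 0.05, no filter). Pairs of genes were compared by an exact permutation test over arrays. In simulated data (25428 features, 200 changed), 18.2% of changes of 1 log2 unit and 76.4% of changes of 2 were recovered. Of the simulated calls, 4.06% were false. The simulation used noise of the same spread on every array and far fewer changes than the 25.6% of features called in the data. Its shares therefore describe the simulated setting and cannot be carried over to the data. The sources do not say whether mice share a litter or cage, so p-values measure the spread between these arrays. No other samples than the 6 were used.

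Named genes were the 10 members, Nfat5, up to 4 called genes with the smallest p per pathway list, and cell type markers where a result turned on them. Of these, 1 pathway gene is not reported here. Members and lists were chosen with earlier results of these data known. Alternatives were a filter on dim features, the mouse number as a replicate block, cyclic loess, median centring, other variance moderation, array weights, protein-coding features only, removal of a lowess trend on gene span, and leaving out each array. Plots used Python 3.11.15 and matplotlib 3.10.9.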

Additional observations from a re-analysis of the deposited data

How the results depend on the processing

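Of 150 values of the 10 genes under the alternatives, 136 kept their direction and their side of the threshold, 13 lost their call and 1 changed sign, that of Mylk (0.077 with the span trend removed). Without variance moderation 1984 features passed (1118 higher, 866 lower), 3 of the 10 genes (1 higher, Ppp1r14a, and 2 lower, Rock2 and Plcb1) and 25 of the 132 pathway genes, with adjusted p-values of 0.0638 for Rock1 and 0.0522 for Ppp1r12b. With the span trend removed 1 member was higher, and 5 passed. Leaving out each array gave 3017 to 6365 features (1462 to 3138 higher, 1555 to 3227 lower), 5 to 7 members (1 to 2 higher, 4 to 5 lower) and 35 to 60 pathway genes. The lowest pathway counts, 35 and 36, were without Nfat5fl/fl mice 1 and 3, which gave 3273 and 3017 features. Leaving out an array gave genotype differences of -0.30 to 0.25 for Rock2 minus Rock1, negative without Nfat5fl/fl mouse 1 (-0.053) and without Nfat5(EC)-/- mouse 1, and of -0.079 to 0.86 for Ppp1r12b minus Ppp1r12a, negative without Nfat5(EC)-/- mouse 4. The mouse numbers did not pair the arrays (correlations of deviations 0.06, -0.01 and 0.01), and with the replicate block 6310 features, 7 members and 57 pathway genes passed. The causes of these differences were not tested.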
